A study of Rattus norvegicus with 12 samples.

Results

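The effect of adding subthalamic stimulation to L-DOPA was examined in the striatum of rats with a lesion of the dopamine neurons. The comparison used 6 of the 12 arrays of the series, 3 of the group DOPA/HFS and 3 of the group DOPA, and left out every array from animals that received no L-DOPA. All 6 arrays came from male rats whose left substantia nigra pars compacta (SNc) had been injected with 9 µg of 6-OHDA, a toxin taken up by dopamine neurons. Both groups then received L-DOPA for 19 days at 25 mg/kg with 12.5 mg/kg benserazide, 2 injections a day 12 h apart, a regimen that produces abnormal involuntary movements (dyskinesia). The DOPA/HFS animals also carried an electrode in the subthalamic nucleus (STN) of the lesioned side and were stimulated without interruption over the last 5 days of the course (frequency 130 Hz, pulse width 80 µs, current 60 µA). In both groups the last L-DOPA injection came 12 h before the animals were killed. The DOPA/HFS animals were killed as soon as the stimulator was off. The DOPA animals had no electrode, so electrode surgery and stimulation cannot be told apart here. Each group held 3 animals, the dorsal striatum was punched from frozen sections, and punches were pooled for RNA.

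In Parkinson's disease the striatum loses its dopamine input, and L-DOPA, the precursor of dopamine, restores part of the signal at the price of dyskinesia after long use. Repeated L-DOPA acts strongly on the striatal projection neurons of the direct pathway, in which prodynorphin and immediate early genes respond to it. High frequency stimulation of the STN is the standard surgical treatment, is often given together with L-DOPA, and reaches the striatum through the circuits that link the basal ganglia, cortex and thalamus.

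RNA was measured on single-colour Agilent arrays, and values are log2 fluorescence intensities, quantile normalized among the 6 arrays; differences are DOPA/HFS minus DOPA on that log2 scale, so that a difference of 1 is a doubling of intensity. Between 50.5 and 58.0% of the gene spots were well above background on the DOPA arrays, and between 60.0 and 62.8% on the DOPA/HFS arrays. The scanner software flagged 4175 spots of DOPA/HFS replicate 3 as non-uniform or as population outliers, both called uneven here. The other 5 arrays had 3 to 25 such spots, and all of them were left out before normalization. Of the 4175, 4174 were well above background, and they made up 16% of the spots well above background on that array. Arrays of the same replicate number shared a slide, and each group held the same position on every slide, so array position and treatment cannot be told apart. The striatal identity of the tissue was clear on all 6 arrays: Penk, the enkephalin precursor of indirect pathway neurons, lay between 16.39 and 16.85, and Adora2a, the adenosine receptor of the same cells, between 14.92 and 15.33.

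No gene passed the test. Of 19873 genes tested, 0 (0%) reached a Benjamini-Hochberg adjusted p under 0.1 together with a fold above 1.2 or below 0.8 in limma's paired fit, and the lowest adjusted p was 0.513. At an unadjusted p under 0.05, 444 genes (2.23%) were higher and 911 (4.58%) were lower with stimulation. The size of the excess of lower genes depended on the scaling and on when the uneven spots were left out. With those spots left out only after normalization, 125 genes were higher and 1248 lower. With each array scaled to its 75th percentile the median of all genes lay at -0.17 instead of -0.01, and 156 genes were higher and 1395 lower, while the authors' log2 values gave 77 higher and 1120 lower genes with a median of -0.11.

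**Figure D1:**
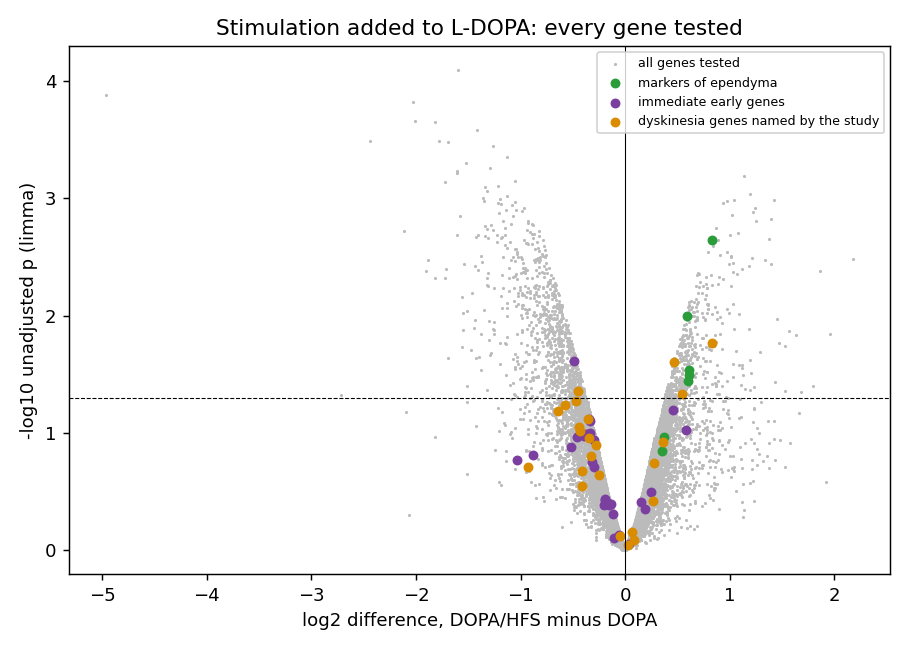
Each point is 1 of the 19873 genes tested, with its log2 difference between DOPA/HFS and DOPA on the x axis and −log10 of its unadjusted p-value from limma on the y axis; the dashed line marks 0.05. Ependymal markers, immediate early genes and genes that the study tied to dyskinesia are coloured, and all 7 ependymal markers lie right of 0. The lists were chosen with earlier results of these data known.

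Complete values were held for 17909 genes, of which 2107 (11.8%) were higher in all 3 pairs of arrays and 2564 (14.3%) were lower in all 3. The 2 groups did not overlap and differed by the fold limits in 454 genes (2.54%) that were higher and 638 (3.56%) that were lower. Over these genes the standard deviation of the difference within a pair was 0.50 in pair 1, 0.46 in pair 2 and 0.55 in pair 3. The counts below are to be read against these shares, which themselves depend on the processing. With the uneven spots left out only after normalization, 77 genes were higher and 1239 lower without overlap and past the fold limits.

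Markers of ciliated cells were higher with stimulation. Ependymal cells line the ventricles next to the striatum, carry bundles of motile cilia, and are made by a program that the transcription factors Foxj1 and the RFX family control. Of 11 ependymal markers, 7 were measured, and all 7 were higher in DOPA/HFS, against 48.3% of all genes. The list was chosen with earlier results of these data known, so it is not independent evidence of a direction. Its median difference was 0.60, with a range of 0.35 to 0.83. The median was 0.72 in pair 1, 0.76 in pair 2 and 0.14 in pair 3. Of the 6 with a value on all arrays, 5 were higher in all 3 pairs and 3 did not overlap between the groups. In tissue RNA, more cells of a type and more RNA per cell cannot be told apart.

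The list's other 4 genes, Tmem212, Ak7, Hydin and Dnah5, were not matched to a probe. Drc12, which encodes a part of the dynein regulatory complex of motile cilia, read 10.13, 9.54 and 9.54 in DOPA replicates 1, 2 and 3 and 11.11, 10.28 and 10.31 in DOPA/HFS. All stimulated values were above all unstimulated ones, and the difference was 0.83 ± 0.16 (SE; limma unadjusted p = 0.00227). A second Drc12 probe differed by 0.45. Foxj1, the master regulator of motile cilia, read 11.22, 10.69 and 11.05 in DOPA and 11.92, 11.16 and 11.64 in DOPA/HFS, a difference of 0.59 ± 0.16 (unadjusted p = 0.0101). It was higher in every pair, although DOPA/HFS replicate 2 lay below DOPA replicate 1. The outer arm dynein gene Dnai2 differed by 0.61 ± 0.21, the radial spoke gene Rsph1 by 0.61 ± 0.22, and the tektin gene Tekt1 by 0.37 ± 0.20. Spag6l, a central pair gene with no value on DOPA/HFS replicate 3, differed by 0.60 ± 0.20. Dnai1, another outer arm dynein gene, was higher in pairs 1 and 2 but not in pair 3, where it read 8.01 without and 7.92 with stimulation. No adjusted p of these genes was below 0.513.

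All 7 markers were also higher under the other scalings and backgrounds tried and with the uneven spots kept, where their median stood between 0.34 and 0.61 above that of all genes. The median was 0.42 without DOPA/HFS replicate 1, 0.39 without DOPA replicate 2 and 0.56 without DOPA/HFS replicate 3. Taken as a sum of intensities over the 6 markers with complete values, the level was 11.53 to 12.07 in DOPA and 12.12 to 12.84 in DOPA/HFS on the log2 scale. In the arrays without L-DOPA, the same 7 genes had a median difference of 0.46 between stimulated and unstimulated animals. Those arrays share none of these samples but lie on the same slides, where position and treatment again cannot be told apart. On them the measured markers of choroid plexus, which also lies in the ventricles, had a median difference of 2.03. Whether the 2 differences are linked was not tested.

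Promoters of the ependymal markers are shown because these genes differed in 1 direction and are known to share a regulator family. RefSeq promoter windows of 300 bases around the start site (rat build GRCr8) were held for 5 of the 7 genes. The 6 letters GTTGCC, the core of the site that RFX factors bind, were searched on both strands and stood once in each of 4 of these windows, against 12.2% of all 33469 windows. The full RFX X-box palindrome, which can overlap these letters, was in 0 of the 5 and in 0.472% of all, and the forkhead letters TGTTTAC were in 0 of the 5 and in 3.78% of all, again on both strands. Capitals mark GTTGCC or its reverse complement in the windows of Drc12 (chr8:53474409-53474708, plus strand), Dnai2 (chr10:100258772-100259071, plus strand), Spag6l (chr11:97677590-97677889, plus strand) and Tekt1 (chr10:57479072-57479371, minus strand).
Drc12: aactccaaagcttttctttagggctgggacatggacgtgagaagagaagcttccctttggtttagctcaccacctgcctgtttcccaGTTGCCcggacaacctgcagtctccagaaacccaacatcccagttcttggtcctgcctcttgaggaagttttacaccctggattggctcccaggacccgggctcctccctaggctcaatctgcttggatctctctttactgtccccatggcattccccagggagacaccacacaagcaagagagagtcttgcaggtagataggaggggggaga
Dnai2: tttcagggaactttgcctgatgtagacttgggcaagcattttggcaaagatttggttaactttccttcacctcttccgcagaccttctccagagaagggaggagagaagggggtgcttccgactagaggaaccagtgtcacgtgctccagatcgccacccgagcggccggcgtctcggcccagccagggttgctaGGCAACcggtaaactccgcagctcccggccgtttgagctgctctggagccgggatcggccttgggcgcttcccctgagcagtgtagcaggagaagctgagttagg
Spag6l: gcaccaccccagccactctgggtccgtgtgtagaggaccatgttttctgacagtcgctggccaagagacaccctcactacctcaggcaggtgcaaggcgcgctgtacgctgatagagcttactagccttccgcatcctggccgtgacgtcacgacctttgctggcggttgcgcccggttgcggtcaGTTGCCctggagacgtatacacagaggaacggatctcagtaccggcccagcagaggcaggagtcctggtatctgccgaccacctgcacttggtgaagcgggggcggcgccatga
Tekt1: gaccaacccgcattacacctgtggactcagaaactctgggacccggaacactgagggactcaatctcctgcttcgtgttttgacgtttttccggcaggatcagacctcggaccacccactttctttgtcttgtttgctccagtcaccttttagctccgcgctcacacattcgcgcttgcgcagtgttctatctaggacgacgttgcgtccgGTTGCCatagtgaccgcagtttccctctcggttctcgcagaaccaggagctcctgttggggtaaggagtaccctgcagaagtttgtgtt

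The 12 genes with the lowest p in the upward direction had varied roles and were not tested as a group. Dnah1, an inner arm dynein heavy chain of motile cilia, read 7.79, 6.92 and 7.28 in DOPA and 8.62, 7.93 and 8.04 in DOPA/HFS, a difference of 0.87 ± 0.16, with no overlap; a second, dimmer Dnah1 probe differed by -0.26. Dync2h1, the motor of transport along the ciliary shaft, was not well above background on any DOPA array, and its difference was at least 1.62-fold. It passed the background filter only through the 3 DOPA/HFS arrays, so it is not separate support for a change of ciliary genes. Mlf1, myeloid leukemia factor 1 (Mlf1_predicted on the array), read 5.45, 3.89 and 4.43 in DOPA and 6.39, 5.26 and 5.54 in DOPA/HFS. It was higher in every pair, by 1.14 ± 0.17, and had the lowest unadjusted p of the 12 (0.000647).

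Dividing precursors and neuroblasts of the adult striatum border lie beneath the ependyma, and a list of 7 of their markers had 5 measured members. All 5 were higher, with a median of 0.36 and medians of 0.47, 0.47 and 0.45 in pairs 1, 2 and 3 over the 4 with complete values. Under the other scalings 4 or 5 were higher. This list was also chosen with earlier results of these data known, so it is not independent evidence of a direction. Its member Top2a is itself among the 12 genes with the lowest p in the upward direction. Top2a, the topoisomerase of dividing cells, read 6.68, 6.02 and 6.22 in DOPA and 7.70, 7.29 and 7.05 in DOPA/HFS, a difference of 1.04 ± 0.17 (limma unadjusted p = 0.00103, adjusted p = 0.513). Every stimulated value was above every unstimulated one. Cd24 (0.21 ± 0.15) and Nes (0.02 ± 0.22, below 0 under other scalings) differed little, and Sox11 had 5 values. From outside the list, among the 12 genes with the lowest p, Cdk1, the kinase that drives entry into mitosis, read 7.99, 7.09 and 7.56 against 8.86, 8.14 and 8.47, again without overlap, and differed by 0.94 ± 0.15. Cdt1, which licenses DNA replication (Ris2_predicted on the array), was not well above background on any DOPA array and was at least 1.65-fold higher in DOPA/HFS. Like Dync2h1, it passed the background filter only through the DOPA/HFS arrays. Dcx, a list member and the microtubule protein of migrating neuroblasts, read 9.56, 8.92 and 9.34 in DOPA and 10.25, 9.72 and 9.78 in DOPA/HFS. Its difference was 0.64 ± 0.16 and its groups did not overlap.

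**Figure D2:**
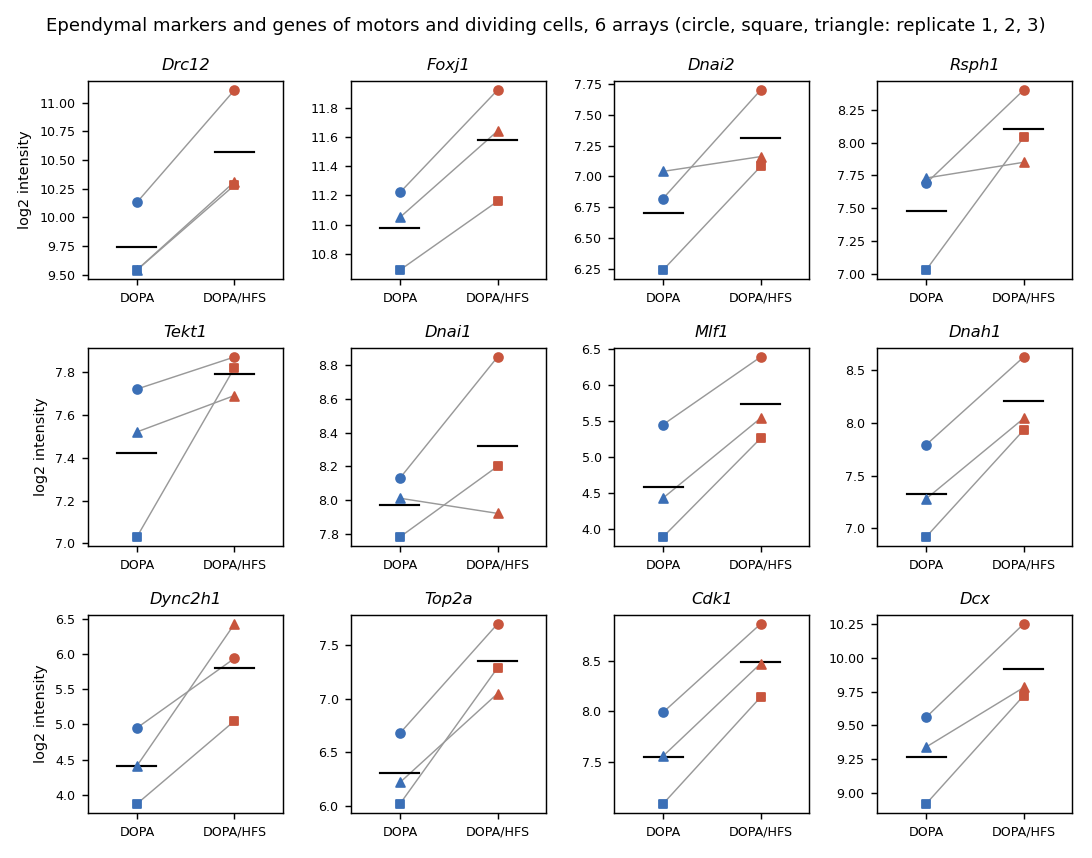
Log2 intensity on each of the 6 arrays for 6 ependymal markers (Drc12 to Dnai1), Mlf1, the dyneins Dnah1 and Dync2h1, and the dividing cell and neuroblast genes Top2a, Cdk1 and Dcx. Lines join arrays of the same replicate number and black bars are group means. Of the 36 lines 35 go up, the exception being Dnai1 in pair 3. Mlf1, Dnah1, Dync2h1, Top2a and Cdk1 are among the 12 genes with the lowest p. Those were picked only from genes higher in all 3 pairs, so their lines had to go up. Of all genes with complete values, 11.8% were higher in all 3 pairs.

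Among the remaining genes in the upward direction was Ch25h, which makes 25-hydroxycholesterol. It read 7.02, 6.60 and 6.72 in DOPA and 7.83, 7.88 and 8.35 in DOPA/HFS, a difference of 1.24 ± 0.21 with no overlap. Without L-DOPA its difference was -0.44, and the difference between both effects had an unadjusted p of 0.0181. Snx8, a sorting nexin of endosomes, differed by 1.02 ± 0.17. Of the 12 genes, 2 carried no gene name, 11 had groups that did not overlap, and 3 were dim on all DOPA arrays. Of the 1040 genes from which the 12 were picked, 449 had groups that did not overlap. Dimness mattered throughout. A probe had to be well above background on 3 of 6 arrays. A gene dim on all DOPA arrays was thus tested only if it was well above background on all 3 DOPA/HFS arrays. There were 63 genes well above background on all 3 DOPA/HFS arrays and on no DOPA array. The reverse held for 1 gene, Ambp, although its spot on DOPA/HFS replicate 3 was left out and its difference was 0.22 with that spot kept. Of the 8 largest upward differences without overlap, led by Smarcc1, a chromatin remodelling subunit, 6 were of this kind, and the difference of Smarcc1 was at least 1.36-fold. The share of spots above background, higher on every DOPA/HFS array, moves with this count, and its part in it was not tested.

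In the downward direction, 8 of the 12 genes with the lowest p carried only a transcript or probe identifier. Sesn3, the stress sensor sestrin 3 (Sesn3_predicted on the array), read 9.61, 10.15 and 9.44 in DOPA and 8.48, 8.92 and 8.41 in DOPA/HFS. The groups did not overlap, the difference was -1.13 ± 0.15 (unadjusted p = 0.000442), and a second probe differed by -0.62. Pls3, the actin bundling protein plastin 3, read 10.24, 10.09 and 10.58 against 9.19, 9.34 and 9.42, a difference of -0.99 ± 0.17. Its second probe, which was also above background on all 6 arrays, differed by -0.02. LOC683288, annotated as similar to the ESCRT subunit Chmp4b, differed by -0.97 ± 0.16. All 12 genes had groups that did not overlap, as did 527 of the 983 genes from which they were picked.

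Hpgd, the enzyme that inactivates prostaglandins, was among the 8 largest downward differences without overlap. It read 9.36, 8.98 and 9.14 in DOPA and 7.64, 8.29 and 6.41 in DOPA/HFS, and differed by -1.72 ± 0.38. All stimulated values were lower, with the largest drop in pair 3. Hpgd also differed by -1.40 between stimulated and unstimulated rats that had no L-DOPA. The largest difference of all was that of an unnamed transcript, BF290343, picked out after its values were seen, which read 16.75, 17.11 and 14.92 in DOPA and 12.75 and 11.20 in DOPA/HFS replicates 1 and 2, its spot on DOPA/HFS replicate 3 being left out. It differed by -4.96 ± 0.42 and passed the test under 3 other scalings or backgrounds, with an adjusted p of 0.0187 at the lowest. With the uneven spots kept its difference was -3.07 and it did not pass.

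A list of 24 genes that the study discussed in relation to dyskinesia was measured in full. The study chose it with the help of the DOPA arrays, so it is not independent evidence of a direction. It mixes genes that the study reported as raised by L-DOPA, such as Trh and Pdyn, with genes reported as lowered, such as Grm4 and Irf7. Its median is therefore no measure of dyskinesia, which the study scored as stronger in the DOPA/HFS than in the DOPA animals. The median difference was -0.31 and 15 of the 24 genes were lower. Of 22 genes with complete values, 8 were lower in all 3 pairs and 3 were higher in all 3. The median was -0.43 in pair 1, -0.19 in pair 2 and -0.17 in pair 3, and it shrank to -0.14 without DOPA/HFS replicate 1.

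That array stood apart in the peptides that L-DOPA raises. Trh, the thyrotropin-releasing hormone precursor, read 10.72, 10.70 and 10.55 in DOPA and 7.76, 10.45 and 10.97 in DOPA/HFS. Stimulated replicate 1 was far below all others, while replicate 3 was the highest of the 6. The difference of -0.93 ± 0.63 thus rested on 1 array, and it was 0.05 without it. Of 8 measured genes of the TRH system, which also holds processing enzymes and receptors, 6 were lower and 0 had an unadjusted p under 0.05. Pdyn, prodynorphin, the opioid precursor of direct pathway neurons, read 16.07, 16.19 and 15.97 in DOPA and 14.64, 15.87 and 15.80 in DOPA/HFS. The groups did not overlap, but by a small margin apart from replicate 1 (difference -0.64 ± 0.28, limma unadjusted p = 0.0651). Of 7 measured opioid genes 5 were lower, and Penk differed by -0.08.

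Receptors and signalling genes of the list went both ways. Cnr1, the cannabinoid receptor of striatal neurons, read 12.01, 12.20 and 12.09 in DOPA and 10.79, 11.85 and 11.91 in DOPA/HFS, and a second probe differed by -0.83, against -0.58 for the first. Stimulated replicate 1 was again the lowest. Rgs4, a brake on G protein signalling, read 15.34, 15.49 and 15.20 against 14.99, 15.10 and 15.09, without overlap but within the fold limits, and its second probe differed by -0.02. Tnni3, a troponin subunit, differed by -0.45 ± 0.17 and Prkcd, a protein kinase C, by -0.47 ± 0.19. Upward, Igfbp5, an insulin-like growth factor binding protein, read 8.29, 7.35 and 8.44 in DOPA and 9.11, 8.75 and 8.70 in DOPA/HFS. Its groups did not overlap (0.83 ± 0.25, unadjusted p = 0.0170), nor did those of the ribosomal stalk gene Rplp0 (0.47 ± 0.15).

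Immediate early genes, which neurons switch on within minutes of activity, leaned downward. Of 32 on the list 28 were measured, 22 were lower and 6 were higher, with a median of -0.19 and medians of -0.24, -0.22 and -0.14 in pairs 1, 2 and 3. All 28 had complete values: 9 were lower in all 3 pairs, and 4 were lower without overlap and past the fold limit, namely Nr4a3, Ptgs2, Egr1 and Dusp1. The list's median stayed below that of all genes under each alternative, by 0.08 to 0.30. The smaller end was reached without DOPA/HFS replicate 1, where the median was -0.10.

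Nr4a3, an orphan nuclear receptor, had the only unadjusted p under 0.05 of the list (0.0242). It read 8.52, 8.60 and 8.83 in DOPA and 8.00, 8.27 and 8.21 in DOPA/HFS, a difference of -0.49 ± 0.16, and a second probe differed by -0.83. Egr1, a zinc finger activator, read 12.77, 12.99 and 12.93 against 12.30, 12.63 and 12.74, all lower with stimulation (-0.34 ± 0.16). Ptgs2, inducible cyclooxygenase, read 6.83, 6.79 and 6.78 against 6.50, 6.61 and 6.25. Dusp1, a phosphatase that ends MAP kinase signals, differed by -0.34 ± 0.17. Arc, a synaptic plasticity gene, read 12.66, 13.22 and 12.70 against 12.03, 12.62 and 12.76, so that its groups overlapped. Fos differed by -0.32 ± 0.20 and Fosb by 0.04 ± 0.26, a sign that the 75th percentile scaling turned. Per1, a clock gene that activity also induces, was higher in every pair (0.46 ± 0.20).

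**Figure D3:**
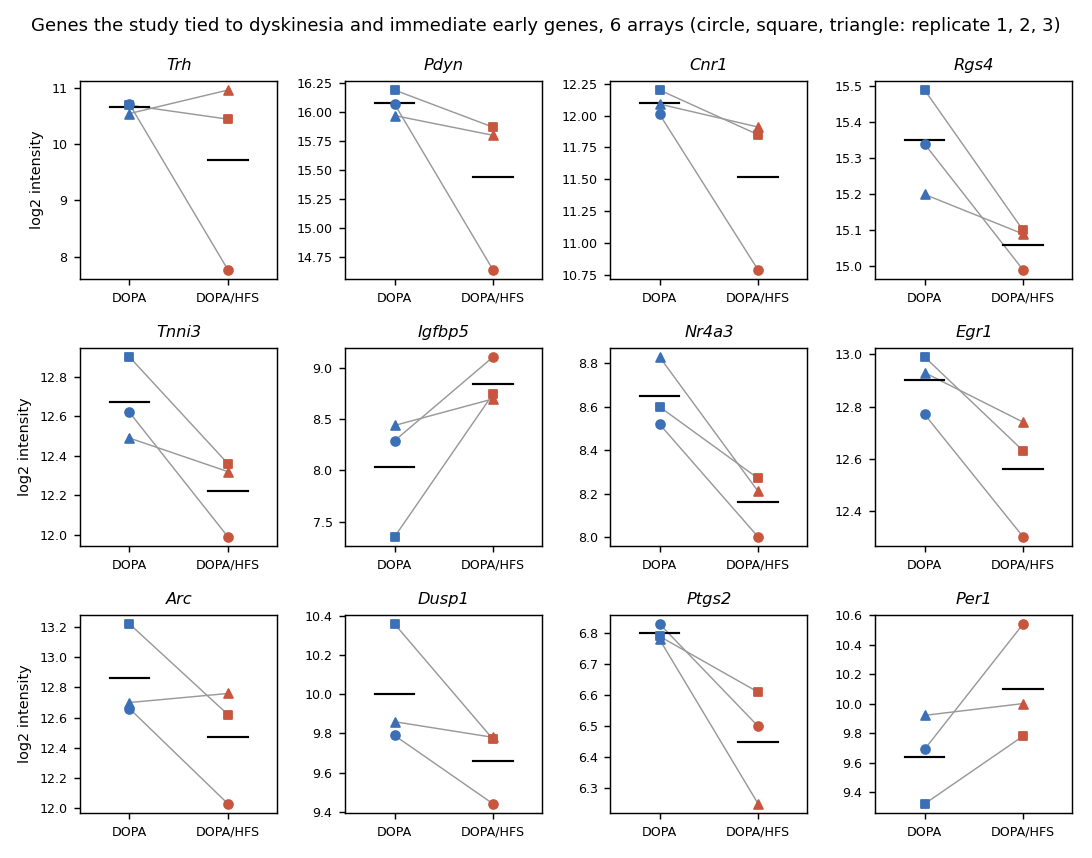
Log2 intensity on each of the 6 arrays for 6 genes that the study tied to dyskinesia (Trh to Igfbp5) and 6 immediate early genes (Nr4a3 to Per1), with lines joining arrays of the same replicate number and black bars at group means. DOPA/HFS replicate 1 (red circle) is far below the other arrays for Trh, Pdyn and Cnr1, while Igfbp5 and Per1 go up in every pair.

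Of 24 interferon response genes 17 were measured and 14 (82.4%) were higher, against 48.3% of all genes, with a median of 0.24. The count was 12 with the 75th percentile scaling and 10 in the authors' values. Of 15 with complete values, 6 were higher in all 3 pairs and 3 did not overlap. Ifitm3, an antiviral membrane protein, read 7.56, 7.0 and 7.03 in DOPA and 8.16, 7.58 and 8.06 in DOPA/HFS, a difference of 0.73 ± 0.17 (unadjusted p = 0.00645), with all stimulated values higher. Oas1i, an oligoadenylate synthetase, differed by 0.78 ± 0.18 and the immunoproteasome subunit Psmb9 by 0.41 ± 0.17, both without overlap. Irf7, the regulator of type I interferon, was also higher in every pair (0.54 ± 0.21). Mx2, another antiviral gene, differed in the opposite direction, by -0.46 ± 0.21. The list's median exceeded that of all genes by 0.07 to 0.33 over the alternatives, with the smallest excess without DOPA replicate 2.

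Of 17 complement genes, 15 were measured and 13 were higher, with a median of 0.14, but 7 were higher and the median was 0 with each array scaled to its 75th percentile, and 8 were higher in the authors' values. C2, a protease of the classical pathway, read 8.28, 8.57 and 8.42 in DOPA and 9.13, 9.27 and 8.73 in DOPA/HFS, and C4a read 7.73, 7.62 and 8.11 against 8.40, 8.42 and 8.23. Both were higher in all stimulated arrays, by 0.62 ± 0.18 and 0.53 ± 0.19. C3, the hub of the cascade, read 8.97, 9.72 and 9.61 against 11.38, 10.13 and 9.47, with a high value in stimulated replicate 1 and overlapping groups. Microglial C1qa, C1qb and C1qc differed by 0.20, 0.06 and 0.10, and the last 2 were below 0 with the 75th percentile scaling. All 5 measured MHC class II genes were higher, with a median of 0.25 but a median of -0.49 in pair 3, and 3 were higher with the 75th percentile scaling. Of 12 microglial markers 8 were higher (median 0.05) and of 12 astrocyte markers 8 (median 0.03), majorities that turned with the scaling, since 2 and 2 were higher with the 75th percentile and 4 and 3 in the authors' values. In addition, 6 reactive astrocyte genes had a median of 0.15 and 7 cytokine genes one of 0.03.

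Vascular genes leaned the other way. Of 12 endothelial markers 9 were lower, with a median of -0.17, and of 7 mural cell markers 5 were lower, with a median of -0.30. Rgs5, the signalling regulator that marks pericytes, read 9.83, 9.73 and 9.78 in DOPA and 9.44, 9.38 and 9.26 in DOPA/HFS. The 3 stimulated values were all lower, by 0.42 on average ± 0.15 (SE). The summed endothelial level was 14.68 to 14.90 in DOPA and 14.47 to 14.62 in DOPA/HFS. Among 15 measured matrix genes 11 were higher, with a median of 0.24 but medians of -0.33, 0.35 and -0.03 in pairs 1, 2 and 3. They included the basement membrane gene Nid1 (0.77 ± 0.25) and the integrin Itgb6 (0.73 ± 0.28), both without overlap, while the fibrillar collagen gene Col5a2 was lower, by -0.56 ± 0.19. The matrix list changed sign under 2 of the 23 alternatives.

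Neuronal genes differed little as lists, apart from 5 cholinergic markers, of which 4 were higher. The median of that list was 0.19 in pair 1, -0.16 in pair 2 and 0.27 in pair 3. It lay 0.05 to 0.27 above that of all genes over the alternatives. Of 11 measured projection neuron markers 6 were lower, with a median of -0.01, and Drd1 and Drd2, the main dopamine receptors, differed by 0.02 (-0.16 with the 75th percentile scaling) and -0.11. The medians were -0.01 over 6 direct pathway markers, -0.07 over 4 indirect pathway markers, 0.21 over 5 cholinergic markers and 0.11 over 8 GABA interneuron markers. Within the last, Cck, cholecystokinin, was lower in every pair (-0.69 ± 0.19). Of 20 measured genes of vesicle release 13 were lower (median -0.07). Cplx2, a complexin, read 11.49, 11.81 and 11.54 in DOPA and 11.04, 11.40 and 10.93 in DOPA/HFS (-0.49 ± 0.15). Its groups did not overlap, nor did those of Syt1, the calcium sensor of release (-0.51 ± 0.17), for which 1 of the other 2 probes differed by 0.17 and the other by -0.55. Sv2a, a vesicle glycoprotein, was higher without overlap (0.46 ± 0.20).

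Receptor and channel lists were spread around 0. Glutamate receptors had a median of 0.05 over 20 genes, GABA genes 0.05 over 18, serotonin and adrenergic receptors 0.11 over 15, endocannabinoid genes 0.10 over 5, dopamine genes 0.01 over 9, and potassium and HCN channels -0.08 over 27. Among 7 acetylcholine receptor genes (median -0.10), Chrm3, a muscarinic receptor, read 11.74, 12.32 and 12.46 in DOPA and 11.73, 11.04 and 11.72 in DOPA/HFS, and the nicotinic subunit Chrnb2 differed by -0.61 ± 0.16. Both were lower in every pair. Signalling lists had medians of -0.08 over 20 cAMP and RGS genes, -0.13 over 19 calcium kinase and phosphatase genes and -0.03 over 16 ERK and JNK genes. Of 17 calcium kinase and phosphatase genes with complete values, 7 (41.2%) were lower in all 3 pairs, against 14.3% of all genes. In the same list 1 gene was higher in all 3 pairs. Rgs10, a microglia-rich RGS protein, was among the 6 cAMP and RGS genes that were higher. Its groups did not overlap, with a difference of 0.58 ± 0.16.

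Of 15 measured genes of neurotrophic factors and their receptors 9 were lower (median -0.15). Ngfr, the p75 neurotrophin receptor, read 8.62, 9.75 and 7.30 in DOPA and 6.82, 8.02 and 6.61 in DOPA/HFS. It was lower in every pair although the groups overlapped, and differed by -1.41 ± 0.26 (unadjusted p = 0.00206). Gdnf, a survival factor for dopamine neurons, read 12.11, 12.38 and 11.64 against 10.71 and 11.39, with its spot on DOPA/HFS replicate 3 left out. Its direction rests on that choice, since the difference was -1.19 ± 0.19 without the spot and 0.38 with it, and a second Gdnf probe stayed near background on all 6 arrays.

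Housekeeping lists hardly differed from all genes. Medians were 0.07 over 71 cytoplasmic ribosomal proteins, -0.04 over 48 respiratory chain genes, -0.03 over 32 proteasome subunits, 0.05 over 22 glutathione and antioxidant genes, -0.06 over 16 chaperones and 0.05 over 14 clock genes. Of the other cell types, 12 oligodendrocyte markers had a median of 0.06, 12 leptomeningeal markers 0.07 and 4 red blood cell genes 0.25. Only 1 cortical projection neuron marker (0.06) and 1 lymphocyte marker (0.32) were measured.

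**Figure D4:**
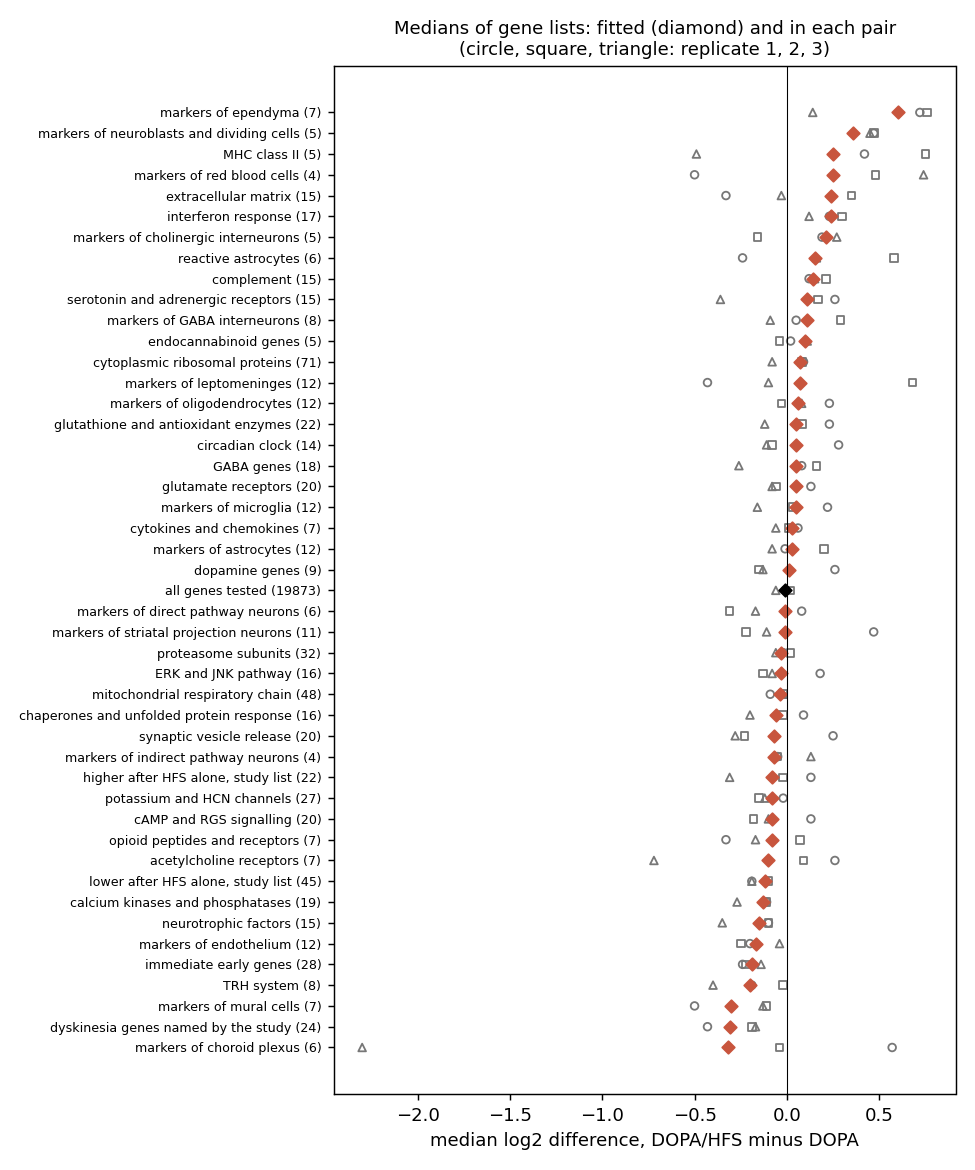
Median log2 difference between DOPA/HFS and DOPA over the genes of each list (filled diamonds; number of genes in brackets) and over its genes with complete values in each pair of arrays (open circle, square and triangle for replicates 1, 2 and 3); lists with under 4 such genes are not drawn. Ependymal and dividing cell markers are above 0 in all 3 pairs, immediate early genes and the dyskinesia list are below 0 in all 3, and choroid plexus markers range from -2.30 to 0.57. Other lists also keep their sign in all 3 pairs, among them interferon response and complement above 0 and endothelial and mural cell markers below 0. The lists were chosen with earlier results of these data known.

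Choroid plexus, the secretory epithelium of the ventricles, lies close to the ependyma, but its markers had no stable direction. Ttr, transthyretin, its most abundant product, read 2.43, 10.24 and 13.75 in DOPA and 8.21, 9.19 and 2.81 in DOPA/HFS. Its level thus varied far more within each group than between them, and the difference of -2.07 ± 2.90 turned to 2.51 without replicate 3. Sostdc1, another marker, read 5.19, 6.62 and 10.41 against 6.09, 6.58 and 5.97, and DOPA replicate 3 was again the array apart. Of 16 markers 6 were measured, 2 of them higher and 4 lower. This split depended on single arrays. Without DOPA replicate 3, and likewise without both arrays of replicate 3, 6 of 6 measured markers were higher. Without both arrays of replicate 1, 0 of 6 were higher.

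Whether stimulation acted alike with and without L-DOPA was addressed with lists and with a test of the difference. The study listed genes that differed between HFS and 6-OHDA arrays, none of which enter the present comparison, though they lay on the same slides. Of the 45 measured genes it listed as lower after HFS alone, 30 were lower in DOPA/HFS than in DOPA, with a median of -0.12. Of 41 with complete values, 14 (34.1%) were lower in all 3 pairs, and 5 were lower without overlap against 1 that was higher. The list's median was below that of all genes by 0.06 to 0.13 over the alternatives. Of the 22 measured genes listed as higher after HFS alone, 7 were higher on L-DOPA and 15 lower, with a median of -0.08.

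Edn1, the vasoconstrictor endothelin 1, read 7.26, 7.28 and 7.29 in DOPA and 6.58, 6.70 and 6.74 in DOPA/HFS. The difference of -0.60 ± 0.15 compared with -0.67 without L-DOPA. Car4, a carbonic anhydrase of capillaries, read 10.97, 11.08 and 11.28 against 10.62, 10.39 and 10.65, and differed by -0.56 ± 0.16 on L-DOPA and by -0.76 without it. Slc39a8, Tnfrsf11b and Ebf1 were the other 3 without overlap, at -0.41, -0.36 and -0.34, and a second Slc39a8 probe that was above background on all 6 arrays differed by -0.16. In the upward list Spata6l was higher on both backgrounds, by 0.65 ± 0.21 and 0.59.

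**Figure D5:**
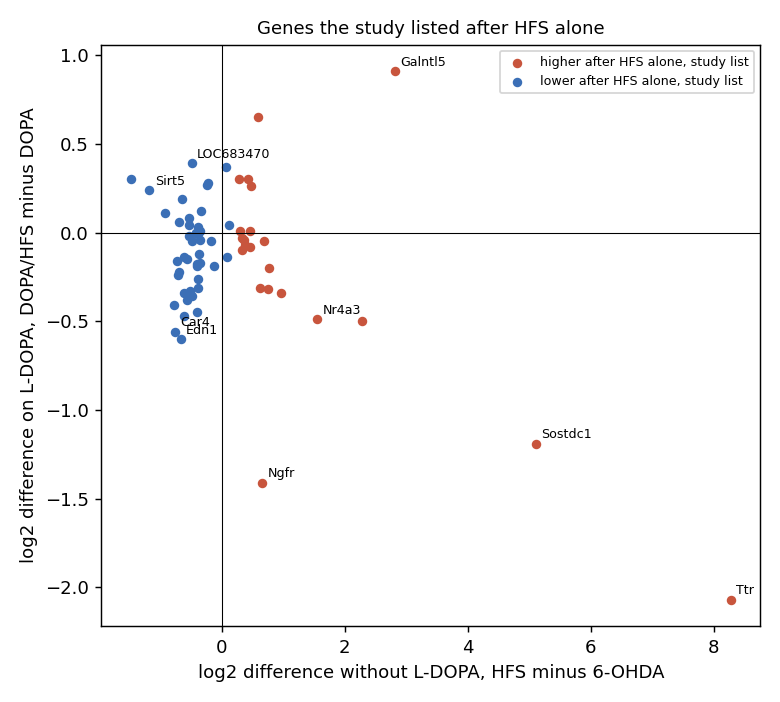
For the genes that the study listed after HFS alone, the log2 difference between HFS and 6-OHDA (x axis, arrays on which they were chosen) and between DOPA/HFS and DOPA (y axis, other arrays of the same slides). Most of the genes listed as lower sit below 0 on the y axis, at -0.60 at the lowest, while those listed as higher lie on both sides of it, with Nr4a3, Ngfr, Sostdc1 and Ttr below.

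No gene differed between the 2 effects at an adjusted p under 0.1: 0 of 20403 (0%), with 211 higher and 329 lower at an unadjusted p under 0.05 in limma. The lowest unadjusted p was that of Pls3, whose values, normalized over 12 arrays, were 9.78, 9.76 and 10.30 in 6-OHDA and 10.20, 10.45 and 10.29 in HFS, against 10.30, 10.15 and 10.63 in DOPA and 9.25, 9.39 and 9.47 in DOPA/HFS. The difference of the effects was -1.35 ± 0.23 (limma unadjusted p = 0.000202), and rests on 1 of 2 probes as above. Nr4a3 was among the 5 lowest and was on the study's list. The study drew that list from these same HFS and 6-OHDA arrays, so the listing is not separate evidence. Nr4a3 read 8.47, 8.10 and 7.95 in 6-OHDA and 10.23, 9.85 and 9.1 in HFS. Every pair was thus higher with stimulation alone, by 1.55 on average, and every pair lower on L-DOPA, a difference between the effects of -2.04 ± 0.36 (limma unadjusted p = 0.000322). The remaining 3 were Slc24a5 (Slc24a5_predicted on the array), an ion exchanger that was well above background on 2 of 3 arrays in either L-DOPA group (-1.89 ± 0.34), and 2 unnamed transcripts.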

How the data were processed

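Total RNA of each striatal sample was labelled with Cy3 and hybridised by the authors to single-colour Agilent rat arrays, which were read with Agilent Feature Extraction 9.1, per the labels. The deposited scanner files give a processed intensity per spot, from which that software had subtracted a fitted spatial background surface and which it had detrended; they also give mean and background intensity and quality flags. A deposited table holds the authors' log2 values. Here log2 of the processed intensity was taken, control and outlier-flagged spots were left out, and the 6 arrays were quantile normalized (limma 3.58.1, R 4.3.3). A probe had to be well above background on 3 of 6 arrays. The brightest probe stood for a gene and for some genes other probes are given. Of 41012 probes, 10735 matched a current RefSeq accession and the others kept the array's names.

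Groups were compared with lmFit and eBayes with the replicate number, which is the slide, as a block; a gene needed both arrays of 2 pairs. Genes were called where the Benjamini-Hochberg value was under 0.1 and the fold above 1.2 or below 0.8. Deviations from the group means correlated by 0.12, 0.28 and -0.02 in pairs 1, 2 and 3, and the pairing comes from the shared slide. With 3 against 3 arrays an exact permutation test cannot go below p = 0.1, so none was used. P-values rest on the spread that the fit leaves after the slide is taken into account, moderated across genes by eBayes. The number of arrays limits precision. The difference of effects was fitted on all 12 arrays. Named genes were the 12 with the lowest p in each direction among those complete, past the fold limit, the same in all 3 pairs and well above background in a whole group, the 8 of these in each direction with the largest change and no overlap, the 5 with the lowest p for the difference of effects, and list members; some named items are not reported here. Members and lists were chosen with earlier results of these data known. The fits were tested on simulated data.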

Additional observations from a re-analysis of the deposited data

How the results depend on the processing

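With each array scaled to its 75th percentile, 1 gene was called, 156 genes were higher and 1395 lower at an unadjusted p under 0.05, and 97 and 1368 did not overlap between the groups. The authors' log2 values gave 1 called gene, 77 higher and 1120 lower at that p, and 61 and 1054 without overlap. A normexp background gave 5 called genes, and 273 and 379 without overlap. Without the filter on dim probes 902 genes were higher and 1544 lower at that p, and 874 and 1025 did not overlap. Keeping the uneven spots gave 115 higher genes at that p, and 231 and 1245 without overlap, and turned Gdnf to 0.38 and Ambp to 0.22. Leaving those spots out only after normalization, an alternative chosen after seeing the data, gave 125 higher genes at that p, and 77 and 1239 without overlap. The share of higher genes among those at that p was 32.8% here, against 10.1, 6.43, 12.3 and 9.1% under the 75th percentile, the authors' values, kept spots and spots left out afterwards; the cause was not tested. Small differences turned with the scaling. Under the 75th percentile they were -0.04 for Adora2a, -0.13 for Nes, -0.12 for Fosb, -0.14 for C1qb, -0.07 for C1qc and -0.16 for Drd1, and in the authors' values -0.12 for Nes, -0.14 for Fosb, -0.04 for C1qc and -0.14 for Drd1. With uneven spots kept, and likewise with them left out afterwards, they were -0.12 for Nes, -0.18 for Fosb, -0.01 for C1qb, -0.05 for C1qc and -0.13 for Drd1.

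Without the replicate block 290 genes were higher and 632 lower at that p and 0 were called, so the block changed no call. Leaving out 1 array or 1 pair gave 0 to 4 called genes, 274 to 830 higher and 440 to 1087 lower at that p, and 763 to 2200 higher and 988 to 2019 lower without overlap, where fewer arrays make separation easier. The genes called were 2 without DOPA/HFS replicate 1, 4 without DOPA/HFS replicate 2, 1 without DOPA/HFS replicate 3 and 1 without replicate 2. Over these settings Trh ranged from -1.59 to 0.08 (0.05 without DOPA/HFS replicate 1), Ttr from -5.91 to 2.51 (0.43 without DOPA replicate 3) and Sostdc1 from -2.29 to 0.43 (0.31 without DOPA replicate 3). Penk ranged from -0.25 to 0.1, Nes from -0.2 to 0.26, Fosb from -0.25 to 0.42, C1qb from -0.09 to 0.26, Drd1 from -0.22 to 0.2 and Drd2 from -0.33 to 0.08. The other differences of single genes recomputed kept their direction under every alternative tried. The difference of effects gave 0 genes under each of its alternatives. The number of arrays and dim probes, whose differences are bounds, limit what can be detected.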
